A study of Mus musculus with 8 samples.

Results

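The genes examined here are 9 genes by which duct cells of the pancreas are usually recognised: the keratins Krt7, Krt8, Krt18 and Krt19, the secreted phosphoprotein gene Spp1, the chloride channel gene Cftr, the tetraspanin gene Tspan8, the mucin gene Muc1 and the clusterin gene Clu. They were taken by symbol from a table of 15985 gene symbols measured by bulk RNA sequencing of mouse islets, the clusters of hormone-secreting cells that lie scattered in the pancreas. Of the 9 genes, 8 had a line in the table and all 8 passed the filter on low values, while Cftr was not analysed here. The 4 libraries labelled knockout (KO) came from Ins-Cre;Sox9fl/fl animals, in which an insulin-promoter Cre recombinase is meant to remove exons 2 and 3 of Sox9 from insulin-positive cells. The 4 control libraries (WT) carried no Cre and were Sox9fl/fl (WT 1), Sox9fl/+ (WT 2), Sox9+/+ (WT 3) and Sox9+/fl (WT 4). All animals were of mixed strain and aged 13 to 16 months, and the study's methods name males. Cre and the loss of Sox9 therefore cannot be told apart, and cells that do not express insulin, duct cells among them, are not targeted by this Cre in either group.

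Values are estimated reads per gene divided by a size factor of the library, called normalized reads in the following. Estimated depth was 11.05 to 19.1 M reads in KO and 13.1 to 26.2 M reads in WT, and 1 read was worth 0.823 to 1.37 normalized reads in KO and 0.659 to 1.21 in WT. The libraries were islet RNA by their content, with Ins2, an insulin gene, taking 20.5 to 25.3% of the signal in KO and 22.9 to 28.6% in WT. One library stood apart in a way its group does not account for: WT 3 had little RNA from the Y chromosome (Ddx3y, 22.6 normalized reads, against 1236 to 1837 in the other 7 libraries), although males are named in the methods. WT 3 also had the highest Krt7, Krt8 and Krt18 of all libraries, so that the correlations and fold changes of the members are also given without it. Sox9 itself did not separate the groups, with 36.6, 16.4, 20.6 and 11.7 normalized reads in KO 1 to 4 and 23.3, 37.3, 13.4 and 13.3 in WT 1 to 4. The groups therefore rest on the labels and were not checked by the targeted gene.

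Ducts carry digestive enzymes out of the exocrine pancreas and add a bicarbonate-rich fluid, and their lining is a simple epithelium of cells that, unlike acinar cells, keep Sox9 into adult life. Keratins form the intermediate filaments of epithelia as pairs of a type II chain (Krt7, Krt8) and a type I chain (Krt18, Krt19). Krt8 and Krt18 are found in most simple epithelia, also in acinar and endocrine cells of the pancreas, whereas Krt19 and Cftr are the more selective duct markers. Islets are picked by hand from digested pancreas and can bring along fragments of duct. In bulk RNA, fewer cells of a type and less RNA per cell cannot be told apart.

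Since Krt8 and Krt18 co-varied over libraries, as given further on, their promoter windows are shown with that of Krt7, taken from RefSeq (GRCm38.p6) as 250 bases before to 50 after the annotated start. All 3 genes lie in a keratin cluster on chromosome 15. The starts of Krt8 (minus strand) and Krt18 (plus strand) lie 23.7 kb apart, head to head, and Krt7 lies 566 kb from Krt8. Capitals mark matches on either strand to TATAAA (the TATA box core) or GGGCGG (the GC box).
Krt7 (chr15:101412153-101412452, plus strand): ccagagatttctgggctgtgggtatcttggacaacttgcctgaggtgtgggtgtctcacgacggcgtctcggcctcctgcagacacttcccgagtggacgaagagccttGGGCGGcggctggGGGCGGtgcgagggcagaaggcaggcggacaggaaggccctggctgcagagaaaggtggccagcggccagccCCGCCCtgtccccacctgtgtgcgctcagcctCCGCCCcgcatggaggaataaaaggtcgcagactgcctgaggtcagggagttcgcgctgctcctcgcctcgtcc
Krt8 (chr15:102004293-102004592, minus strand): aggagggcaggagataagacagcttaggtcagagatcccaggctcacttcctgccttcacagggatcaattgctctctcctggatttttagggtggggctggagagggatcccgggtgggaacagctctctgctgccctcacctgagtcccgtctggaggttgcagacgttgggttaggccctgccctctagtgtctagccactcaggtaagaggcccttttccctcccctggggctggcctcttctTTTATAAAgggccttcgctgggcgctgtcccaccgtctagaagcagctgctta
Krt18 (chr15:102027966-102028265, plus strand): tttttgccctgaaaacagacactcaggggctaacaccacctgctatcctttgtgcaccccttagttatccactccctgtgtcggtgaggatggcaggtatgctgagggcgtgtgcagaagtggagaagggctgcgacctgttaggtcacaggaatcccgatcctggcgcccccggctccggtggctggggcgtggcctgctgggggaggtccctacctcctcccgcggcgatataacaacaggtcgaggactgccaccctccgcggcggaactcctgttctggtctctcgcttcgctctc
The Krt7 window held 4 GC boxes, beginning 141, 128, 56 and 24 bases before the start. The Krt8 window held a pair of overlapping TATAAA matches on opposite strands, which begin 3 and 1 bases before the RefSeq start. The Krt18 window held neither motif, so the windows of the co-varying Krt8 and Krt18 shared none of the motifs searched. Among the 8 windows available for 7 of the 9 genes, TATAAA was also found in Muc1, beginning 31 bases before its start, and in 1 of the windows of Spp1, and GGGCGG was also found in Muc1 and, 6 times, in Cftr. AACAAT, the core that SOX factors recognise, and TGANTCA, the AP-1 site, were found in 0 of the 8 windows. Krt19 and Clu had no window, so no motif was searched in their promoters. Over all 32851 promoter windows of the same length, TATAAA occurred in 13.6%, GGGCGG in 35.7%, AACAAT in 10.7% and TGANTCA in 7.81%.

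The levels of the 8 genes spanned more than 3 orders of magnitude. Per kilobase of the longest protein-coding transcript, Krt8 averaged 9026 normalized reads over the 8 libraries and Krt18 averaged 4308. Clu (540), Spp1 (438), Tspan8 (341) and Krt7 (149) formed a middle group, although per kilobase of the shortest protein-coding transcript they would be at 1545, 1863, 896 and 953. Krt19 (8.69) and Muc1 (5.46) were scarce and stood near Sox9 (5.22). Krt8 was thus 1038-fold above Krt19 per kilobase, and the more selective duct keratin was the one close to the detection limit. The list is named for duct cells, but its defining markers Krt19 and Cftr were near the detection limit or not analysed here, and which cells were the source of each RNA was not tested. Some reads are also ambiguous: 32.3% of the 31-base words of Krt8 occur in transcripts of 10 other genes, among them the pseudogene Krt8-ps, against 11.4% in Krt18, 14.3% in Spp1, 2.11% in Krt7, 0.439% in Krt19 and 0 in Tspan8, Muc1 and Clu.

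**Figure D1:**
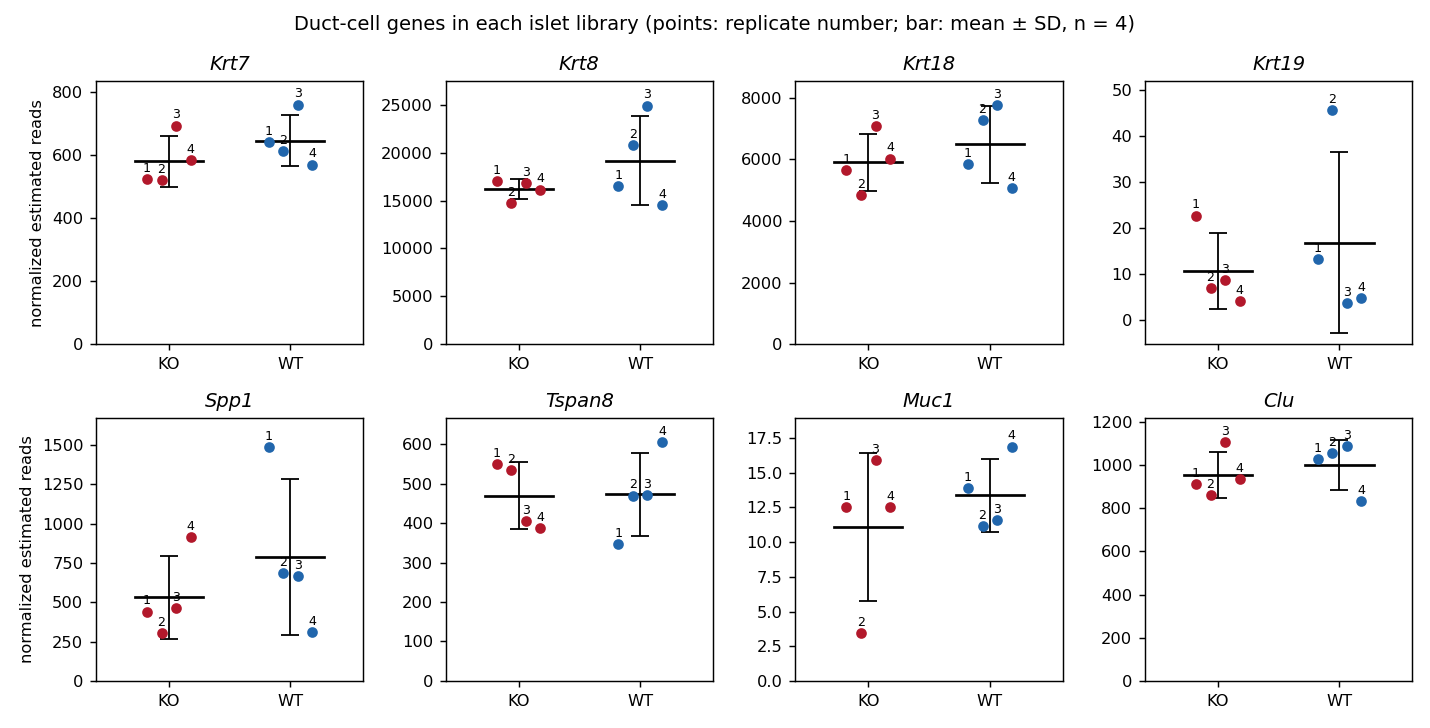
Normalized reads (vertical axis, linear) of the 8 genes in each library, with KO to the left of WT. Points carry the replicate number, the horizontal bar is the mean and the error bar the SD (n = 4). KO and WT overlap for every gene; Krt19 is high in KO 1 and WT 2, and Spp1 in KO 4 and WT 1.

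Krt8, the main type II keratin of simple epithelia, had 16995, 14695, 16859 and 16146 normalized reads in KO 1 to 4, against 16480.1, 20798, 24921 and 14488 in WT 1 to 4. The 4 KO libraries were close together, and the spread lay among the controls, where WT 2 and WT 3 were above and WT 4 below every KO library. Its partner Krt18 had 5652, 4832, 7078 and 6019 normalized reads in KO 1 to 4, against 5838, 7268, 7759 and 5073 in WT 1 to 4. The lowest libraries of both genes were KO 2 and WT 4, and the highest was WT 3. Krt7, a type II keratin more restricted to ducts and other glandular linings, had 523, 521, 692 and 582 normalized reads in KO 1 to 4, against 639, 612, 759 and 569 in WT 1 to 4. Clu, a secreted chaperone of injured and of many healthy epithelia, had 912, 861, 1106 and 935 normalized reads in KO 1 to 4, against 1026, 1054, 1087 and 832 in WT 1 to 4. KO 3 and WT 3 were the 2 highest libraries for Krt7 and Clu, and the range over all libraries was 1.33-fold for Clu, 1.46-fold for Krt7, 1.61-fold for Krt18 and 1.72-fold for Krt8.

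All 6 correlations among these 4 genes were positive, from r = 0.71 (Krt7 and Krt8) to r = 0.92 (Krt18 and Clu), on log2(value + 0.5) over 8 libraries. Of the 28 pairs that the 8 genes form, 2 passed the threshold by an exact two-sided permutation test with Benjamini-Hochberg adjustment over the 28 pairs. Krt8 and Krt18 had r = 0.87 (exact p = 0.00139, adjusted p = 0.0295) and rho = 0.81 (exact p = 0.0218), and r was 0.80 without WT 2 and WT 3, the libraries farthest from the median of Krt8. Krt18 and Clu had r = 0.92 (exact p = 0.00211, adjusted p = 0.0295) and rho = 0.88 (exact p = 0.00724), and r was 0.89 without KO 2 and WT 3. Among all 15959 other genes tested, Krt18 ranked 31st by its correlation with Krt8, and Clu ranked 12th by its correlation with Krt18. Krt7 had r = 0.85 with Clu (adjusted p = 0.0606) and r = 0.83 with Krt18 (adjusted p = 0.0631), both short of the threshold, and its r with Krt18 was 0.62 without KO 3 and WT 3.

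The size of these correlations held better than their call. Leaving out each library in turn kept r between 0.84 and 0.96 for Krt8 and Krt18 and between 0.90 and 0.96 for Krt18 and Clu, but with 7 libraries both pairs lost the call after omission of any library other than KO 3. Without WT 3, r was 0.85 for Krt8 and Krt18 (exact permutation test, adjusted p = 0.0778) and 0.91 for Krt18 and Clu (adjusted p = 0.0778), and it was 0.37 for Krt7 and Krt8. By Spearman's rho, 0 of the 28 pairs passed the adjustment (smallest adjusted p = 0.075), while with the group means removed 4 pairs did, namely these pairs, Krt7 with Clu and Spp1 with Tspan8. Removing the means ties the values within a group, so the permutation test is not exact for that count. Within a library, all genes share its depth and its size factor.

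**Figure D2:**
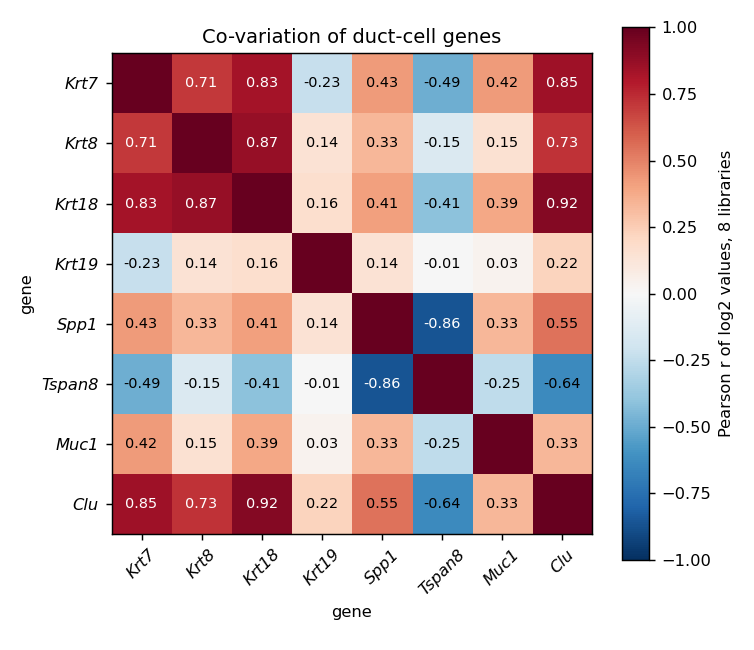
Pearson correlation (r, colour scale) of log2 values between each pair of the 8 genes over the 8 libraries. Krt7, Krt8, Krt18 and Clu form a block of positive values from 0.71 to 0.92, of which Krt8 with Krt18 and Krt18 with Clu passed the test, Krt19 stays within 0.24 of 0 with every other gene, and Spp1 and Tspan8 have r = -0.86.

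Among tested genes with a mean of at least 100 normalized reads, the 5 whose log2 values followed Krt8 most closely over the 8 libraries were Nabp1 (r = 0.94), Nop58 (r = 0.94), Crybb3 (r = 0.93), Trp53i11 (r = 0.93) and Litaf (r = 0.92). All 5 were highest in WT 3, as Krt8 was. Crybb3, a lens crystallin gene, had 107, 84.2, 123 and 144 normalized reads in KO 1 to 4, against 123, 194, 494 and 112 in WT 1 to 4.

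Krt19 did not share the course of the other keratins. It had 22.7, 6.83, 8.67 and 4.10 normalized reads in KO 1 to 4, against 13.1, 45.8, 3.66 and 4.74 in WT 1 to 4, a 12.5-fold range. In estimated reads these values correspond to 17.9, 4.98, 9.23 and 4.98 in KO 1 to 4 and to 16.4, 69.4, 3.04 and 3.91 in WT 1 to 4, so that 5 of the 8 libraries held fewer than 10 reads of it. KO 1 and WT 2 were high and the other libraries low, in both groups alike. WT 3, the highest library for Krt7, Krt8 and Krt18, was the lowest for Krt19. Its within-group SD was 1.32 on the log2 scale, larger than that of 93.1% of the 1273 genes of similar level, and its correlations with the 7 other members lay between -0.23 and 0.22.

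Krt19 instead followed Sox9, the transcription factor of duct and progenitor cells. Both genes had their highest values in KO 1 and WT 2, intermediate values in KO 2, KO 3 and WT 1, and their lowest in KO 4, WT 3 and WT 4. Over the 8 libraries they had r = 0.97 (exact two-sided permutation test, p = 9.92e-05, adjusted p = 0.00327 over the 33 other duct genes with a line) and rho = 0.93 (exact p = 0.00223, adjusted p = 0.0737). This family of tests was not planned and was run for Krt19 alone among the members, which the adjustment does not cover. Without KO 1 and WT 2 r was 0.96 (exact permutation p = 0.00556), without WT 3 it was 0.97, and leaving out each library in turn kept it between 0.97 and 0.98 with adjusted p between 0.00655 and 0.0262. Sox9 ranked 2nd among all 15959 other genes by its correlation with Krt19, and Krt19 ranked 3rd by its correlation with Sox9. The relation covers both groups, with KO 1 and WT 2 at nearly the same Sox9 level, and rests on 3 to 69 reads of Krt19 and 11 to 57 reads of Sox9 per library.

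Of the other 32 duct genes, 0 passed the same test against Krt19. Among positive correlations the nearest was Aqp1, a water channel of duct and endothelial cells (r = 0.77, exact permutation test, adjusted p = 0.443), followed by the epithelial ETS factor gene Ehf (r = 0.57) and the mucin gene Muc6 (r = 0.43), whose r without KO 1 and WT 2 was 0.14 and -0.23. Among genes with a mean of at least 100 normalized reads, the most like Krt19 were Epb41l2 (r = 0.99), Zfp36l1 (r = 0.97), Anxa2 (r = 0.95), Kctd18 (r = 0.94) and Mrto4 (r = 0.93). Anxa2, a calcium-dependent membrane-binding protein gene, had 218, 173, 192 and 169.7 normalized reads in KO 1 to 4, against 191, 307, 132 and 145 in WT 1 to 4. The summed level of 11 mesenchyme markers had r = 0.83 with Krt19 (exact permutation p = 0.0115, adjusted p = 0.653 over 80 relations of members with cell markers), with 4542, 4597, 4187 and 3422 normalized reads in KO 1 to 4 and 4142, 5799, 2284 and 2756 in WT 1 to 4. That relation did not pass the adjustment, and its part in the values of Krt19 was not tested.

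**Figure D3:**
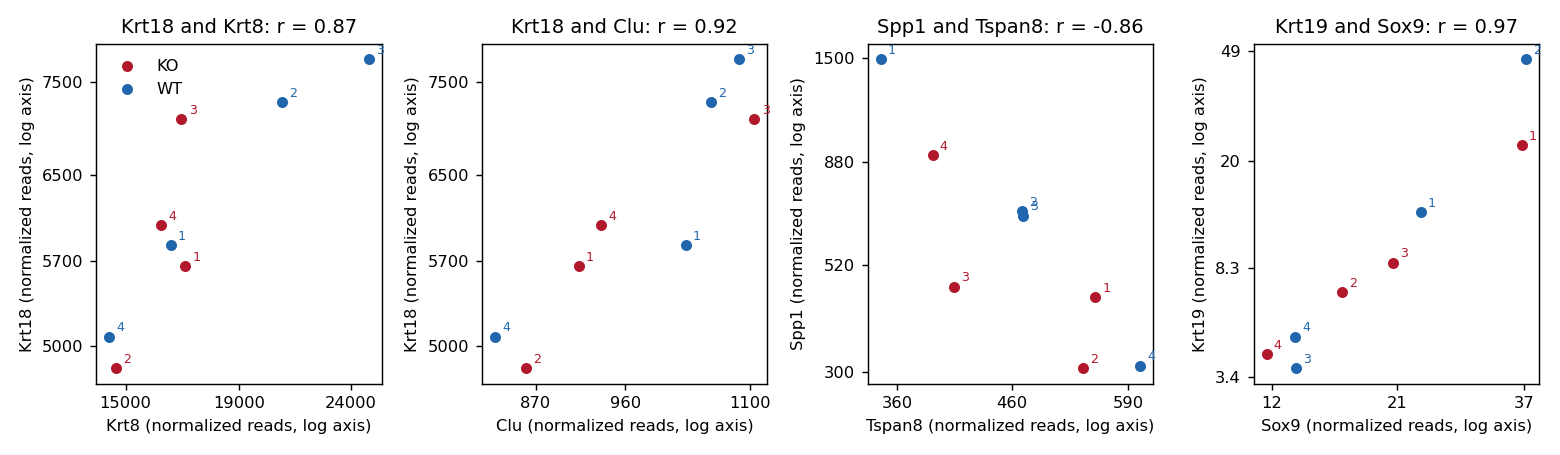
Normalized reads of 4 pairs of genes, 1 point per library, numbered by replicate, on log axes; KO is red and WT blue. Krt18 follows Krt8 (r = 0.87) and Clu (r = 0.92), Spp1 runs against Tspan8 (r = -0.86) and Krt19 follows Sox9 (r = 0.97).

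Spp1 (osteopontin), a secreted matrix and cytokine-like protein of duct cells that macrophages also make, had 441, 306, 465 and 912 normalized reads in KO 1 to 4, against 1488, 684, 669 and 311 in WT 1 to 4. KO 4 and WT 1 were high, KO 2 and WT 4 low, and the range was 4.86-fold. Its within-group SD of 0.80 on the log2 scale was larger than that of 99.7% of the 2113 genes of similar level, whose median was 0.18. It rested on 224 to 1857 estimated reads per library. Tspan8, a membrane tetraspanin of gut and duct epithelium, had 549, 535, 406 and 388 normalized reads in KO 1 to 4, against 347, 469.8, 471 and 605 in WT 1 to 4. It ran opposite to Spp1, lowest in KO 4 and WT 1 and highest in WT 4 (r = -0.86, rho = -0.86, exact permutation p = 0.00637 for r and 0.0107 for rho, adjusted p = 0.0595 for r). Without KO 2 and WT 1, r was -0.76, and without WT 3 it was -0.87. With the summed markers of delta and PP cells, Spp1 had r = -0.76 and Tspan8 r = 0.75, and neither passed the adjustment (exact permutation p = 0.0272 and 0.0326, adjusted p = 0.653 for both). Without its 2 farthest libraries (KO 2 and WT 1 for Spp1, WT 1 and WT 4 for Tspan8) r was -0.37 for Spp1 and 0.63 for Tspan8. These sums were 113358, 140481, 112523 and 99582 normalized reads in KO 1 to 4 and 92542, 119553, 134805 and 124977 in WT 1 to 4. Their part in the opposite course of the genes was not tested.

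Muc1, a transmembrane mucin of the luminal face of ducts, was scarce throughout, with 12.5, 3.46, 15.9 and 12.6 normalized reads in KO 1 to 4, against 13.9, 11.2, 11.6 and 16.9 in WT 1 to 4. KO 2 was the single low library, with 2.52 estimated reads, and the others held between 9.63 and 17.3. Its correlations with the other members lay between -0.25 and 0.42, none of them past the threshold. Its within-group SD of 0.68 on the log2 scale was close to the median of 0.70 for genes of similar level.

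The design holds a single comparison, of KO with WT. Of the 8 genes, 0 passed an adjusted p of 0.05 in limma with Benjamini-Hochberg adjustment over 15960 genes, and 0 had an unadjusted p under 0.05. Adjusted calls were few over all genes as well (9 genes, 0.0564% of all tested), whereas 10.7% had an unadjusted p under 0.05. With only 8 genes, a count of 0 is not set apart from that share. For 0 of the 8 genes were the groups without overlap, against 6.35% of all genes. The median log2 fold change of the 8 genes was -0.19, against -0.03 over all genes tested. All 8 estimates were below 0, as were 55.1% of all genes, but that of Tspan8 was above 0 after either rescaling of the libraries and with an acinar score as covariate, and that of Krt19 was above 0 with this covariate.

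The intervals show what changes these libraries could have held. For the abundant genes they were narrow: Krt8 had a log2 fold change of -0.22 (SE 0.16, 95% interval -0.56 to 0.13), Krt18 of -0.13 (SE 0.16, -0.47 to 0.21), Krt7 of -0.16 (SE 0.13, -0.44 to 0.13) and Clu of -0.07 (SE 0.12, -0.33 to 0.20). Their adjusted p in limma lay between 0.661 and 0.884. On the linear scale the lower bounds correspond to KO levels of 0.679 times WT for Krt8, 0.721 for Krt18, 0.737 for Krt7 and 0.794 for Clu. Tspan8 had a log2 fold change of -0.0011 (SE 0.18, -0.39 to 0.38). For the variable genes the intervals were wide, with Spp1 at -0.47 (SE 0.52, -1.68 to 0.74), Muc1 at -0.42 (SE 0.48, -1.46 to 0.62) and Krt19 at -0.23 (SE 0.76, -1.90 to 1.43). The interval of Krt19 includes a change by a factor of 2 in either direction. Sox9 had a log2 fold change of -0.02 (SE 0.44, -0.98 to 0.94).

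Single libraries moved several of these estimates by more than 1.5 times. Without WT 3 the log2 fold change was -0.08 for Krt8, -0.07 for Krt7, -0.04 for Krt18, -0.02 for Clu, -0.69 for Krt19, -0.48 for both Spp1 and Muc1, and 0.0055 for Tspan8. Without WT 4, the lowest control for Krt8, Krt18, Clu and Spp1, the log2 fold change was -0.34 for Krt8, -0.24 for Krt18, -0.15 for Clu and -0.85 for Spp1. In that fit 1 of the 8 genes had an unadjusted p under 0.05, against 12.2% of all genes tested. Without WT 1, the highest control for Spp1, the log2 fold change of Spp1 was -0.09, and without KO 4, the highest KO library, it was -0.77. Without WT 2, which held most of the Krt19 reads of the controls, the log2 fold change of Krt19 was 0.46, and without KO 4 it was 0.10. Without KO 2 that of Muc1 was 0.04. In all of these fits 0 of the 8 genes passed the threshold (limma, adjusted p between 0.376 and 0.998 over the omissions).

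**Figure D4:**
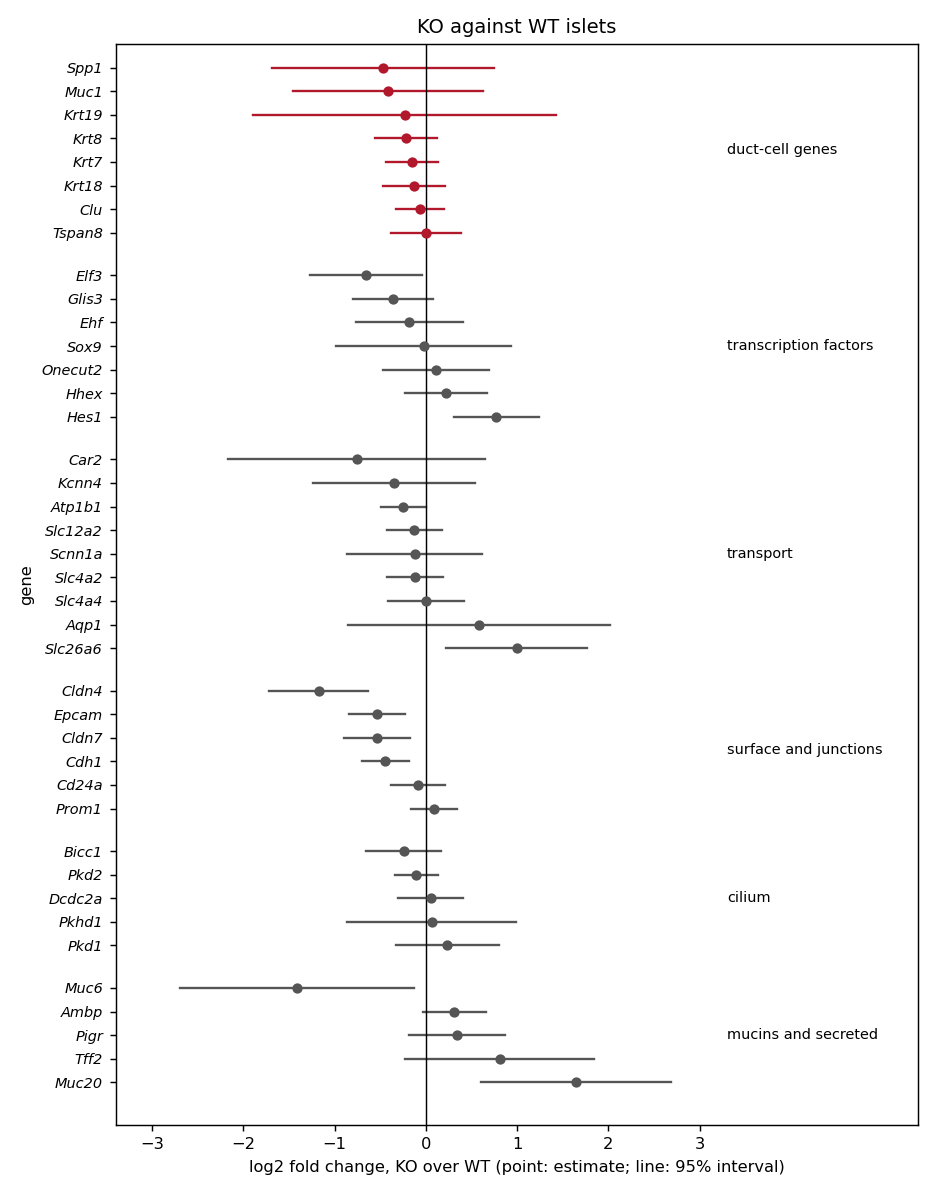
log2 fold change of KO over WT (horizontal axis) for the 8 duct-cell genes (red) and 32 of the 33 other duct genes (grey), sorted within each role; points are estimates and lines 95% intervals from limma. The intervals of all 8 duct-cell genes include 0; Cldn4, at -1.17, is the lowest of the surface genes.

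Other genes known from duct cells were followed in a list of 42, of which 33 had a line. Which cells were the source of the RNA of these 33 genes was not tested. Of these, 0 passed the adjusted threshold in limma. An unadjusted p under 0.05 was found for 9 (3 with estimates above 0 and 6 below), against 10.7% of all genes tested. The groups did not overlap for 6 (5 with KO lower and 1 with KO higher, against 3.68% and 2.67% of all genes tested). Since the genes were chosen with earlier results of these data known, these counts describe the list only. The median log2 fold change was -0.09. Among 8 transcription factors the median was 0.04. Hes1, a Notch target that keeps progenitors undifferentiated, had 93.5, 143, 149 and 149.5 normalized reads in KO 1 to 4, against 73.2, 98.0, 59.3 and 82.2 in WT 1 to 4 (log2 fold change 0.77, SE 0.21, adjusted p = 0.208), with KO 1 inside the range of WT. Elf3, an epithelial ETS factor, had an estimate of -0.66 on the log2 scale (SE 0.27, adjusted p = 0.436) and was, like Krt8, highest in WT 3.

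Among 9 transport genes the median log2 fold change was -0.12. Only for Atp1b1 did the groups not overlap, with KO lower (log2 fold change -0.25, SE 0.11, limma, adjusted p = 0.471), as in 3.68% of all genes tested. Slc26a6, an apical chloride-bicarbonate exchanger, had 211, 390.4, 364 and 225 normalized reads in KO 1 to 4, against 97.9, 91.6, 224 and 211 in WT 1 to 4 (log2 fold change 0.996, SE 0.344, limma, adjusted p = 0.344), the groups overlapping through WT 3 and WT 4. Car2, a carbonic anhydrase gene, had 1.72 to 7.31 normalized reads in KO and 2.97 to 15.6 in WT. The 5 genes of the primary cilium and of tubule shape, Pkd1 and Pkd2 among them, had estimates between -0.24 and 0.23. Of them 0 had an unadjusted p under 0.05, against 10.7% of all genes tested.

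The adhesion and surface genes had a median log2 fold change of -0.49, the lowest of the 5 roles. In 4 of 6 the groups did not overlap, with KO lower, against 3.68% of all genes tested. The list was chosen with earlier results of these data known, so its share is a description and not a test against all genes. Cldn4, a claudin of tight junctions, had 2708, 1641, 1849 and 1809.5 normalized reads in KO 1 to 4, against 3227, 4323, 7233 and 3809 in WT 1 to 4 (log2 fold change -1.17, SE 0.24, limma, adjusted p = 0.128). The other 3 were Epcam (-0.54, SE 0.14), a surface glycoprotein of epithelia, Cdh1 (-0.45, SE 0.12), which encodes E-cadherin, and Cldn7 (-0.54, SE 0.17), another claudin, with adjusted p between 0.192 and 0.271. None of the 6 passed the threshold. Endocrine cells also express Cdh1 and Epcam, so that these genes are not limited to ducts.

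Among 5 mucins and other secreted products the median log2 fold change was 0.34. Muc20 had 23.7, 25.8, 30.7 and 17.1 normalized reads in KO 1 to 4, against 2.56, 7.42, 10.6 and 13.2 in WT 1 to 4 (log2 fold change 1.64, SE 0.48, limma, adjusted p = 0.233), without overlap of the groups. Over all genes tested, 2.67% had groups without overlap and KO higher. Muc6, a gel-forming mucin of small ducts and glands, had 109, 24.3, 12.2 and 21.6 normalized reads in KO 1 to 4, against 60.7, 103, 95.2 and 62.3 in WT 1 to 4 (log2 fold change -1.41, SE 0.57, adjusted p = 0.418). In 3 of 4 KO libraries Muc6 was below every control, and KO 1, which was high in Krt19 and Sox9, was above all of them.

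The filament partners of the member keratins were examined too. Of 22 other keratin genes, 4 had a line (Krt1, Krt10, Krt80 and Krt222), and 0 passed the adjusted threshold. Krt1, a keratin of stratified epithelium, had 59.9, 44.7, 42.2 and 31.2 normalized reads in KO 1 to 4, against 90.6, 53.0, 92.1 and 137 in WT 1 to 4 (log2 fold change -1.02, SE 0.30, limma, adjusted p = 0.233). All 9 desmosome and linker genes had a line and 0 passed the threshold. Jup (plakoglobin, -0.48, SE 0.15), Dsg2 (a desmosomal cadherin, -0.37, SE 0.16) and Pkp3 (a plakophilin, -0.72, SE 0.32) had unadjusted p under 0.05 in limma, with adjusted p between 0.287 and 0.454. These 3 of 9 stand beside 10.7% of all genes tested, in a list chosen with earlier results of these data known. Dsp, the plakin that ties keratin filaments to desmosomes, had a log2 fold change of -0.0030 (SE 0.12).

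Markers of other cells were followed in the same libraries. Of 28 acinar genes, 27 had estimates above 0, with a median log2 fold change of 0.98 and 0 called. Their summed level was 133414 to 348305 normalized reads in KO and 49894 to 245681 in WT (adjusted p = 0.571 over the 10 marker lists by exact permutation). Prss1 was listed at 0 in WT 2, and Cela3a and Gp2 were not analysed here. The 12 immediate early and heat shock genes, such as Fos and Hspa1b, summed to 307141 to 506010 normalized reads in KO and 63987 to 201962 in WT, without overlap, at p = 0.0286, the smallest the exact permutation test allows (adjusted p = 0.286). That list was chosen with earlier results of these data known, so the separation is a description and its p is no support for it. With an acinar score as a covariate, 0 of the 8 duct-cell genes passed the threshold in limma and their log2 fold changes lay between -0.93 (Muc1) and 0.19 (Krt19). The summed early genes had r between -0.29 (Muc1) and 0.22 (Krt18) with the 8 duct-cell genes over the libraries. By exact permutation, adjusted p was 0.986 for each. Beyond these correlations, the part of the early genes in the values of the duct-cell genes was not tested.

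Across the 8 libraries, 0 of 80 relations between the 8 genes and the summed markers of 10 cell types or states passed Benjamini-Hochberg adjustment (smallest adjusted p = 0.653). Of them, 4 had an unadjusted exact permutation p under 0.05. Besides the 3 given above, the fourth was Krt8 with alpha cell markers (r = 0.77, exact permutation p = 0.0252), whose sums were 263942, 273752, 170224 and 207164 normalized reads in KO 1 to 4 and 243291, 352834, 423785 and 216936 in WT 1 to 4. WT 2 and WT 3 were the highest libraries for both, and r was -0.26 without them, so that the relation rested on these libraries. Macrophage markers, of interest because macrophages make Spp1, summed to 2066 to 2855 normalized reads in KO and 2117 to 2956 in WT. With Spp1 this sum had r = -0.32 over the libraries (exact permutation p = 0.439, adjusted p = 0.986). Beyond this correlation, the part of macrophages in the values of Spp1 was not tested. Mesothelial markers, of which 3 of 7 had a line, summed to 28.7 to 152 normalized reads in KO and 37.1 to 94.8 in WT, and Lrrn4 was listed at 0 in KO 2 and WT 1.

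**Figure D5:**
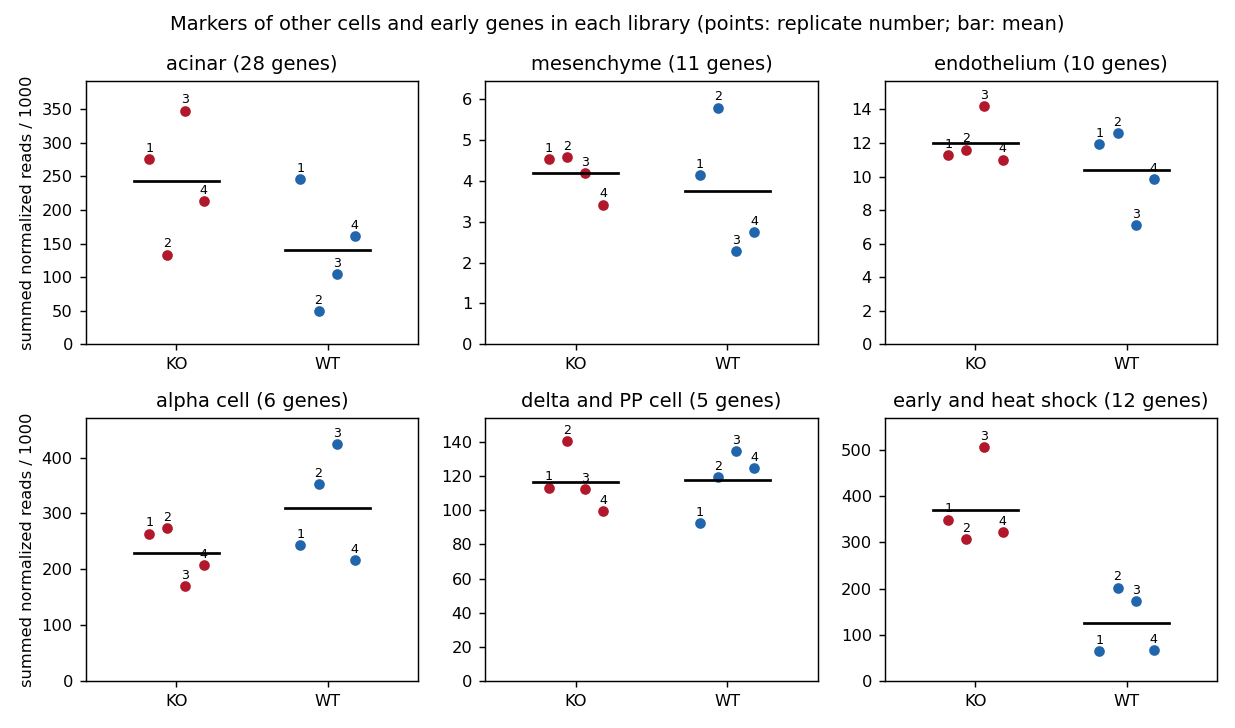
Summed normalized reads (linear vertical axis, in units of 1000) of markers of other cells and of 12 immediate early and heat shock genes in each library, with KO to the left of WT; points carry the replicate number and bars are means (n = 4). The early genes, chosen with earlier results of these data known, separate the groups. Acinar markers are highest in KO 3 and lowest in WT 2, and alpha cell markers are highest in WT 3.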

How the data were processed

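Islet RNA of 8 animals was profiled by bulk RNA sequencing (4 KO, 4 WT), and groups were taken from the sample labels. RNA was isolated with RNeasy and made into stranded KAPA libraries for an Illumina HiSeq. The authors trimmed reads with cutadapt (1.13), pseudoaligned them to the Ensembl GRCm38 transcriptome with kallisto (0.46.1), which divides reads shared by similar transcripts between them, and summed and normalized estimated counts per gene in sleuth. The deposited library columns hold this normalized signal, the estimated reads of a gene divided by a size factor of its library, not scaled to transcript length. The deposited columns of the authors' own comparison (effect sizes, p-values, q-values and variance terms) were not used.

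The 16684 lines were reduced to 15985 symbols by dropping repeated lines and summing the identifiers of a symbol. Depth was read from the spacing of low values. Only 65.0 to 70.8% of low values were whole reads (within 0.05 reads), so no count model was used. Genes above 1 in at least 4 libraries (15960) were compared on log2(value + 0.5) with limma (3.58.1, R 4.3.3; trended, robust prior, two-sided, Benjamini-Hochberg adjustment at 0.05), which was checked on simulated data. Fold changes on this scale understate the change of scarce genes. Correlations used Pearson's r on the same scale with exact two-sided permutation tests over 40320 orders (SciPy), and summed markers an exact permutation test over 70 assignments of the libraries. Of 36 planned pairs 28 could be formed, since Cftr was not analysed here. The labels give no batch, and nothing beyond the replicate number shows how the libraries were made. With 1 library per animal, p-values measure the spread between libraries, in which animal, islet isolation and library preparation cannot be told apart. Coordinates and transcript lengths are from GENCODE M21 (GRCm38) and promoter windows from RefSeq (GRCm38.p6).

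The members and gene lists were chosen with earlier results of these data known. Named genes are the members and Sox9, up to 4 genes of each other list by smallest p and up to 2 by highest mean, and the 5 genes most correlated with Krt19 and with Krt8. Exceptions named after their values were seen are Aqp1, Ehf and Ddx3y. The tests of Krt19 against the other duct genes, and of members against summed markers over the libraries, were not among those planned. The alternatives were other pseudocounts, filters and scalings, a plain prior, the replicate number as a block, an acinar score as a covariate, and the omission of each library. The values of 1 other duct gene are not reported here.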

Additional observations from a re-analysis of the deposited data

How the results depend on the processing

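Of the 8 duct-cell genes and of the 33 other duct genes, 0 were called under every alternative, over 135 alternative fits of the 8 genes (smallest adjusted p in limma = 0.376). Over all genes, 9 calls became 14 with a pseudocount of 1, 4 after rescaling by the sum without the 100 most abundant genes, 1 with a plain variance prior, 3 with the acinar covariate, and between 1 and 58 without 1 library each, with 58 without WT 2. The log2 fold change of Tspan8 became 0.0366 and 0.0563 after rescaling by the median ratio or by the sum, 0.11 with the acinar covariate and -0.14 to 0.13 without 1 library. That of Krt19 became 0.19 with the acinar covariate and -0.69 to 0.46 without 1 library, and that of Muc1 -0.65 to 0.0384. The count of co-varying pairs became 4 with group means removed, 0 by Spearman's rho and between 0 and 4 without 1 library. The KO minus WT difference of summed markers changed sign for delta and PP cells (955 and 2349.6 after the 2 rescalings, -9959 to 4151 without 1 library), macrophages (-242 to 42.2) and mesenchyme (-45.5 to 1126), and its exact permutation p was never under the threshold for these. The cause of these shifts was not tested. With the replicate number as a block 6 genes and 0 members were called. Replicate numbers did not pair the libraries (same-number correlations of -0.12, -0.03, -0.12 and 0.05 over 14435 genes). Depth limits Krt19 and Muc1, with 3.04 and 2.52 estimated reads in their lowest library.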
